A study of Mus musculus with 12 samples.

Results

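The histone cluster genes are the genes that encode the replication-dependent histones and stand together in clusters of the mouse genome. They were taken here as every gene of the deposited table whose symbol begins with Hist1h, Hist2h, Hist3h or Hist4h. This gave 70 members among 34174 genes: 6 genes of the linker histone H1, 20 of H2A, 19 of H2B, 12 of H3 and 13 of H4. Cardiac stem cells, cells of the heart grown on gelatin-coated dishes, had been cultured from c-kitCre and wild-type mice of the strain C57BL/6, and their RNA was sequenced. The c-kitCre name stands for Cre recombinase under control of the Kit gene, which encodes the receptor used to mark these cells. The labels give no further detail of the allele, and no age of the animals. Each genotype had 3 cultures with 2 libraries each, and the table holds 1 value per culture, so n = 3 throughout. The authors' name for their comparison of the genotypes calls it a clone analysis. Apart from that name, whether the cultures came from separate animals or were clones is not stated. The p-values thus reflect only how far these cultures spread.

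Replication-dependent histone genes are transcribed mainly while a cell copies its DNA. Most have no intron, and their messenger RNAs end in a conserved stem-loop instead of a poly(A) tail. The stem-loop is bound by the protein SLBP, which takes part in 3′ end formation and translation. The core histones H2A, H2B, H3 and H4 form the nucleosome, and H1 binds the DNA between nucleosomes. The libraries were made by depleting ribosomal RNA and priming at random, so RNA without a poly(A) tail was retained.

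Levels are given as scaled reads, that is, the authors' raw values after the per-culture scaling that underlies their normalized table. Summed raw values were 35963488, 22371439 and 26546087 in the c-kitCre cultures and 35043499, 32392712 and 34854988 in the wild-type cultures. Kit (ENSMUSG00000005672, chr5:75574916-75656722, mm10) had 1732, 1738 and 1603 scaled reads in the cultures labelled c-kitCre, against 3.38, 1.55 and 1.17 in those labelled wild-type. A Cre allele placed at Kit predicts no gain of Kit RNA in the carriers, but the labels do not say where the allele sits. With the allele at Kit, this gene would go against the labels, which was not tested. Every direction below rests on the labels: c-kitCre and wild-type name the cultures as labelled. The cardiac progenitor list, 7 of 8 genes at 10 scaled reads or more, summed to between 13398 and 15437 in the c-kitCre cultures and between 4828 and 6280 in the wild-type cultures. Pdgfra, at means of 8077 in c-kitCre and 580 in wild-type cultures, made up most of the c-kitCre sum, and Gata4, Isl1, Tbx5 and Kit were also above wild-type without overlap. Ly6a (729 ± 45.8 in c-kitCre and 3002 ± 272 in wild-type cultures) and Nkx2-5 (2.46 ± 0.955 in c-kitCre and 10.1 ± 6.26 in wild-type cultures) were below it without overlap, and Abcg2 overlapped. All 4 fibroblast markers were present, with sums of 106612 to 167884 in the c-kitCre cultures and 7696 to 14421 in the wild-type cultures. The 3 smooth muscle markers summed to 1519 to 3730 and the 4 leukocyte markers, 3 of them present, to 291 to 504 in the c-kitCre cultures, against 74.3 to 130 and 153 to 181 in the wild-type cultures. The 4 cardiomyocyte markers, of which 1 was present, summed to 128 to 139 in the c-kitCre cultures and 1469 to 3616 in the wild-type cultures. Of the 4 endothelial markers 1 was present, with sums of 56.3 to 64.7 in the c-kitCre cultures and 25.1 to 73.6 in the wild-type cultures, and of the 4 mast cell markers none, with sums of at most 3.31. Apart from these 2 lists, the sums of the marker lists moved with genotype without overlap, though single genes carried some of them. Tnnt2, at means of 122 in c-kitCre and 2194 in wild-type cultures, made up most of the cardiomyocyte sums. Cd68 and Csf1r made up most of the leukocyte sums, while Ptprc and Cd3e overlapped between genotypes. The part of the marker differences in the histone results was not tested.

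The stem-loop was searched for in the annotated transcript of each member (GENCODE M21, mm10) as a 16-base run with a paired stem of 6 bases around the histone loop. It was found in 45 of 70 members and in 15 of 55380 other genes (0.0271%). It was absent from 24 members, and 13 of these have a model that ends at the stop codon. In Hist1h1a the model ends 1 base short of it. The runs below are shown because the stem differed by class and because these genes carry the results, with the stem-loop in capitals:

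Hist1h1a: caacGGCTCTTTTCAGAGC
Hist1h1d: aaacGGCTCTTTTCAGAGCCaccca
Hist2h2ac: aaaaGGCTCTTTTTAGAGCCaccaa
Hist1h3g: taaaGGCTCTTCTTAGAGCCaccca
Hist2h4: taacGGCCCTTTTTAGGGCCaacca
Hist1h4c: aaaaGGCCCTTTTCAGGGCCaccca
Hist1h4j: taaaGGTCCTTTTCAGGACCaccac

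The form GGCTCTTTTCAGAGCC was the most frequent in H2A, H2B, H3 and H1 genes, with 10, 7, 5 and 3 members. No H4 gene had it. Of the H4 genes, 7 had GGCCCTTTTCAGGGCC, 2 had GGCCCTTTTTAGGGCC, 2 had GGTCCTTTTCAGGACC and 1 had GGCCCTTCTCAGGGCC. The median log2 difference, c-kitCre minus wild-type, was -0.88 in the 45 members with the stem-loop in the model and -0.80 in the 24 tested members without it.

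Promoters of 60 members were matched in RefSeq (GRCm38.p6), and the 250 bases before each start were searched on both strands for 4 motifs. CCAAT was in all 6 H1, 17 H2A and 15 H2B promoters, in 8 of 10 H3 and in 3 of 12 H4 promoters, and in 34.5% of 27025 mouse promoters of the same length. TATAAA was in 29 of the 60 and in 13% of all. The octamer ATTTGCAT was in 7 of 17 H2A and 6 of 15 H2B promoters, in none of the other classes, and in 1.61% of all. AAACACA, named the H1 box, was in 5 of 6 H1 promoters and in 6.22% of all; the H1 promoter without a match was that of Hist1h1a. The promoters of the H1 genes that were called higher and lower in c-kitCre cultures are printed with matches to these motifs on either strand in capitals:

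Hist1h1a promoter, chr13:23763418-23763667, plus strand: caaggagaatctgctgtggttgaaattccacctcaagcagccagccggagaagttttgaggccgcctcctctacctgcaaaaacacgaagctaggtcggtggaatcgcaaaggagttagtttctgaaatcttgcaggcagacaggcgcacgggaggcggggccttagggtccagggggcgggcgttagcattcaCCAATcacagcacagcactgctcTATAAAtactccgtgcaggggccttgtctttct
Hist1h1b promoter, chr13:21780626-21780875, minus strand: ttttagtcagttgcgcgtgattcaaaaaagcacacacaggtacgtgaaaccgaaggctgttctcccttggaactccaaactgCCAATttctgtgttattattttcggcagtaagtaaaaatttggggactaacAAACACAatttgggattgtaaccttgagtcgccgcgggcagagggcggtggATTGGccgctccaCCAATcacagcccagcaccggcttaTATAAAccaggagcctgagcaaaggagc

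Both have CCAAT and TATAAA, and AAACACA was found only in that of Hist1h1b. A match is a run of letters and was not tested as a binding site.

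Summed over all members, histone reads were lower in c-kitCre cultures on average, and the groups overlapped. The sums were 106259, 145543 and 72141 scaled reads in c-kitCre cultures and 269074, 158781 and 128702 in wild-type cultures. Means were 107981 ± 36731 and 185519 ± 73907 (SD, n = 3 each), a ratio of 0.582. Wild-type culture 1 stood far above the other 5, and c-kitCre culture 2 was above wild-type culture 3. Leaving out c-kitCre culture 2 gave a ratio of 0.481, and leaving out wild-type culture 1 gave 0.751. As a share of the summed raw values, the members took 0.341%, 0.429% and 0.257% in c-kitCre cultures and 0.787%, 0.548% and 0.447% in wild-type cultures. In bulk RNA, fewer cells in S phase and less histone RNA per cell cannot be told apart. Each class had a lower mean in c-kitCre cultures, with a ratio of 0.710 for H1, 0.445 for H2A, 0.598 for H2B, 0.506 for H3 and 0.572 for H4. The groups overlapped in every class but H4. The make-up by class differed little for H4, whose genes took 29.5% ± 2.98 of the members' reads in c-kitCre cultures and 29.9% ± 2.13 in wild-type cultures. H1 genes took 26.5% ± 4.29 in c-kitCre cultures and 22.7% ± 1.39 in wild-type cultures, with overlap. H2A genes took 9.28% ± 0.510 in c-kitCre cultures and 12.04% ± 1.30 in wild-type cultures (SD, n = 3 each), and the 2 sets of 3 shares did not overlap.

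**Figure D1:**
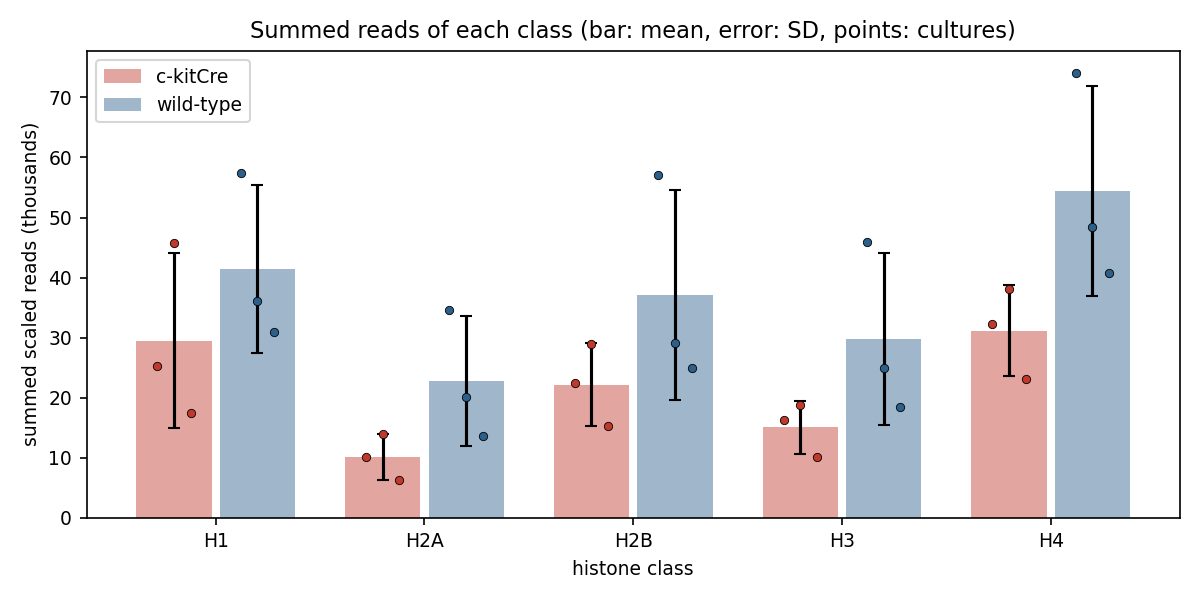
Summed scaled reads of each histone class, with c-kitCre left of wild-type; bars are means, errors SD and points the 3 cultures. In every class the highest point is wild-type culture 1, and for H4 alone do all wild-type cultures lie above all c-kitCre cultures (23037 to 38114 in c-kitCre and 40752 to 74069 in wild-type cultures).

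Gene by gene, 3 members were higher and 20 lower in c-kitCre cultures at an adjusted p under 0.05 (limma across all genes, Benjamini-Hochberg), and 46 did not pass. The remaining member, Hist2h3b, was at 0 in all cultures and was not tested. Of all 24151 genes tested, 35.5% were called, 16.2% higher and 19.3% lower. With 33.3% of the 69 tested members called, being called was no more frequent among them than among all genes. The direction was less even. The log2 difference was below 0 in 59 of 69 members, against 46.4% of all genes, and its median was -0.88, against 0.04 over all genes. Members are mostly well expressed, and among the 12045 genes that average 100 scaled reads or more the median was -0.19. The 58 members over that level had a median of -0.89, with 52 below 0 (89.7%), against 57.3% of all genes at that level. All 3 c-kitCre cultures lay below all 3 wild-type cultures in 31 members and above in 4, against 27.0% and 26.1% of all genes (53.2% in either direction). At 100 scaled reads or more the shares were closer: 46.6% of members and 40.2% of all genes had every c-kitCre culture below, and 31.0% of members and 31.25% of all genes were called lower.

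The number of calls changed when a culture was left out, and each such fit also has a culture fewer. The 20 lower calls became 13 without wild-type culture 1, 5 without wild-type culture 2 and 19 without wild-type culture 3. Over all genes, the 4669 lower calls became 4880, 3191 and 3415 in these fits. Without c-kitCre cultures 1, 2 and 3, the lower calls became 8, 8 and 5 among members and 3683, 4406 and 3560 among all genes. The member calls that held in each of these 6 fits were 5, those of Hist1h1a, Hist3h2bb-ps, Hist2h4, Hist1h2bn and Hist1h2ao. The direction of most members was kept: between 55 and 62 had a difference below 0 in these fits, and the median ran from -1.14 to -0.56. Centring on the median of all genes moved the median of all genes to -0.31 and that of the members to -1.23. Centring on the better expressed genes (mean of 50 scaled reads or more) moved these medians to 0.26 and -0.66. Each centring shifts all genes by the same amount, so the gap between the 2 medians is fixed by construction.

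**Figure D2:**
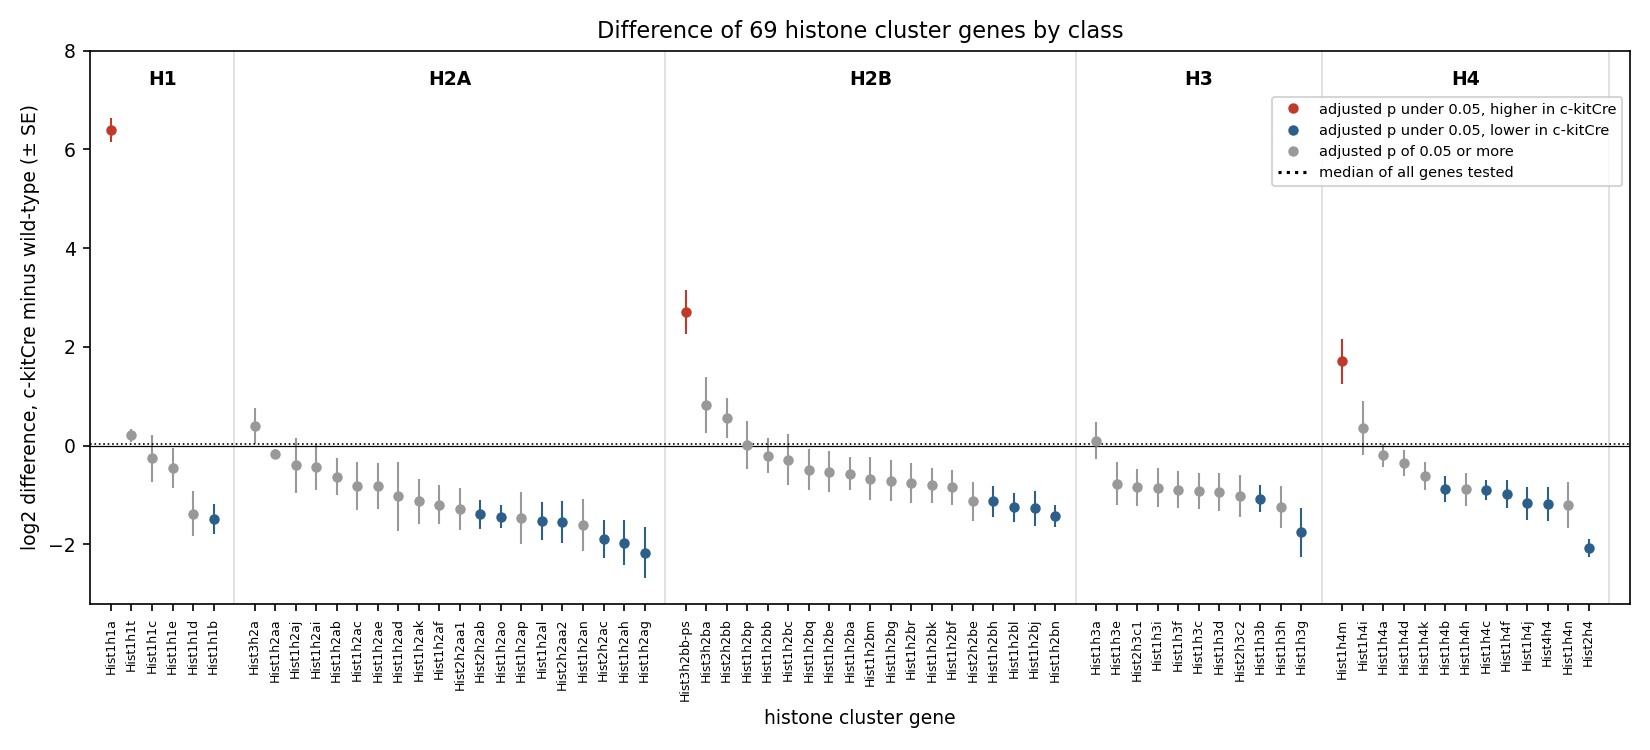
Log2 difference, c-kitCre minus wild-type, with its SE for the 69 tested members, sorted within each class; red and blue mark an adjusted p under 0.05 and the dotted line is the median of all genes tested (0.04). Hist1h1a stands alone at 6.39, and most members of every class lie between 0 and -2.16.

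Sequence shared between members limits these values. A member's transcript was cut into all stretches of 100 bases, the read length, and those also found in another gene were counted. The median over members was 35.9%, with 29 members at 50% or more and 6 with none. Of the 23 members with under 20% shared, 2 were called higher and 9 lower, with a median of -0.89. Members of 1 class were joined where 50% or more of the stretches of either were found in the other, and joins were chained. A joined member can thus share little with the rest of its set. When joined members were summed, 47 sums remained, of which 2 were higher and 14 lower. Many H2A models also overlap a predicted gene on the other strand, and whether counting used strand is not given in the sources used here.

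Among the linker histones, 1 gene was far higher and another lower in c-kitCre cultures. Hist1h1a (chr13:23763666-23764406), known in human mainly from thymus, testis and spleen, had 1985, 2368 and 1577 scaled reads in c-kitCre cultures, against 19.1, 26.8 and 24.4 in wild-type cultures. The log2 difference was 6.39 ± 0.24 (SE; limma, adjusted p = 5.44e-05), and it shares no stretch of 100 bases with another gene. The difference was between 6.25 and 6.55 in every alternative fit tried. Hist1h1b (chr13:21779883-21780625) had 2014, 1785 and 1578 scaled reads in c-kitCre cultures and 8001, 3916 and 3903 in wild-type cultures. The log2 difference was -1.48 ± 0.30 (adjusted p = 0.0114), with no overlap and no shared stretch, and an adjusted p of 0.0569 without c-kitCre culture 2 and 0.0598 without c-kitCre culture 3. These 2 genes thus stood at about the same level in c-kitCre cultures while they were far apart in wild-type cultures.

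The other H1 genes were not called. Hist1h1d had 3490, 6238 and 2287 scaled reads in c-kitCre cultures, all below the 15364, 7846 and 7187 of wild-type cultures (-1.37 ± 0.45, adjusted p = 0.0573). Hist1h1e had 10376, 20390 and 7334 scaled reads in c-kitCre cultures and 19801, 15467 and 12935 in wild-type cultures (-0.45 ± 0.40, adjusted p = 0.419). Hist1h1c had 7363, 14916 and 4685 in c-kitCre cultures and 14194, 8791 and 6972 in wild-type cultures (-0.25 ± 0.47, adjusted p = 0.702). For both Hist1h1e and Hist1h1c, c-kitCre culture 2 was the highest culture of all and c-kitCre culture 3 the lowest, so the groups overlapped widely. The difference of Hist1h1c was 0.03 when wild-type culture 1 was left out and 0.13 when c-kitCre culture 3 was left out. Hist1h1t, the testis linker histone, stayed at or below 5.18 scaled reads in every culture. Hist1h1e and Hist1h2be have overlapping models on the same strand, so their reads may be mixed.

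Levels were compared between H1 genes per kilobase of coding sequence. Hist1h1a made up 8.01%, 5.27% and 9.20% of the H1 class in c-kitCre cultures and 0.0341%, 0.0760% and 0.0807% in wild-type cultures. Hist1h1d made up 13.3% ± 0.372 in c-kitCre cultures and 23.6% ± 2.56 in wild-type cultures, and Hist1h1b 6.79% ± 2.64 in c-kitCre cultures and 12.2% ± 1.52 in wild-type cultures (SD, n = 3 each). Neither pair of groups overlapped. Hist1h1e held 42.2% ± 1.77 in c-kitCre cultures and 39.6% ± 4.51 in wild-type cultures, a difference within the spread. Hist1h1c held 30.2% ± 2.97 in c-kitCre cultures and 24.6% ± 1.25 in wild-type cultures, without overlap. Per kilobase of all annotated exons, Hist1h1a reached 15.8% ± 3.44 in c-kitCre cultures and 0.150% ± 0.0606 in wild-type cultures. That scale lowers Hist1h1d, whose model has 7425 exon bases, to 2.94% in c-kitCre cultures and 5.75% in wild-type cultures. On either scale the 3 c-kitCre shares of Hist1h1a lay above the 3 wild-type shares.

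**Figure D3:**
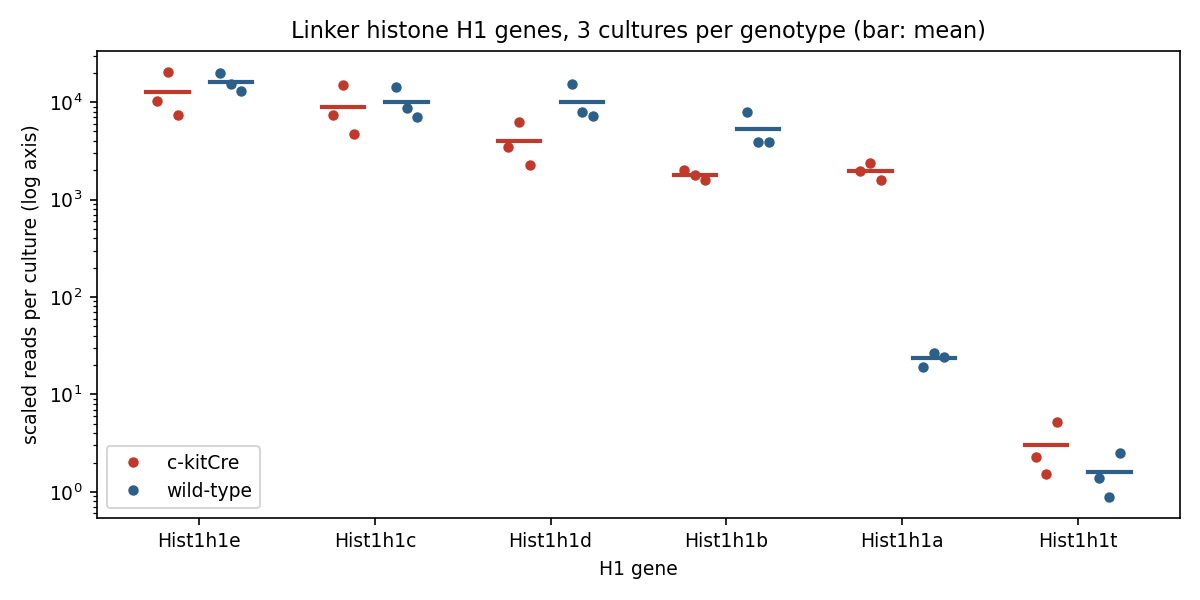
Scaled reads (log axis) of the 6 H1 genes, ordered by mean, with c-kitCre left of wild-type; points are cultures and bars means. Hist1h1a is at 1577 to 2368 in c-kitCre cultures and 19.1 to 26.8 in wild-type cultures, while Hist1h1e and Hist1h1c overlap between genotypes.

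H2A was the class with the lowest median, -1.24 over 20 genes, of which 7 were lower, none higher and 19 below 0. For this class and those below, 19.3% of all genes tested were called lower, and 31.25% at 100 scaled reads or more. Hist1h2ag had 191, 154 and 66.6 scaled reads in c-kitCre cultures, against 860, 624 and 329 in wild-type cultures (-2.16 ± 0.52, adjusted p = 0.0198). Hist1h2ah had 217, 284 and 108 in c-kitCre cultures and 1160, 692 and 497 in wild-type cultures (-1.97 ± 0.46, adjusted p = 0.0181). Hist1h2ao had 96.2, 140 and 106 in c-kitCre cultures and 297, 354 and 272 in wild-type cultures (-1.44 ± 0.23, adjusted p = 0.00449). In all of these the groups did not overlap, and these genes share 68.1% to 92.7% of their stretches with 1 other gene. They belong to a joined set of 11 H2A genes of chromosome 13, and the sum of that set was not called (-1.06 ± 0.43, adjusted p = 0.109). The pseudogene copy Hist1h2al, on chromosome 13 far from the others, was lower at 9.46, 9.63 and 2.29 in c-kitCre cultures and 27.7, 19.1 and 18.2 in wild-type cultures (-1.53 ± 0.38, adjusted p = 0.0232).

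On chromosome 3, all 4 H2A genes lay below wild-type without overlap, and 3 were called. Hist2h2ac, which shares 16.9% of its stretches with other genes, had 843, 785 and 542 scaled reads in c-kitCre cultures and 4671, 2247 and 1742 in wild-type cultures (-1.89 ± 0.39, adjusted p = 0.0116). Hist2h2ab had 62.1, 59.9 and 41.7 in c-kitCre cultures and 177, 131 and 120 in wild-type cultures (-1.39 ± 0.30, adjusted p = 0.0136). Hist2h2aa2 had 1816, 1834 and 1101 in c-kitCre cultures and 7429, 4783 and 2544 in wild-type cultures (-1.54 ± 0.42, adjusted p = 0.0317). Summed with its identical copy Hist2h2aa1 it was still lower (-1.54 ± 0.42, adjusted p = 0.0314). The call of Hist2h2ac was lost without c-kitCre culture 2 or 3 (adjusted p = 0.0528 and 0.0593) and that of Hist2h2ab without wild-type culture 2 (0.0542). Those of Hist1h2ag, Hist1h2ah and Hist2h2aa2 were lost in 4, 4 and 5 of the 6 fits with a culture left out (adjusted p up to 0.122), and that of Hist1h2al without any one wild-type culture (up to 0.0676).

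In H2B, 4 of 19 genes were lower and 1 was higher, with a median of -0.66. Hist1h2bn had 1236, 1134 and 862 scaled reads in c-kitCre cultures, against 3635, 2831 and 2275 in wild-type cultures (-1.43 ± 0.22, adjusted p = 0.00404), and kept its call in each alternative fit. It shares 52.13% of its stretches with other genes, 46.45% with the closest of them. It was joined to no other member, so summing joined members left its values as they were. Hist1h2bl had 622, 629 and 395 in c-kitCre cultures and 1853, 1124 and 999.7 in wild-type cultures (-1.25 ± 0.30, adjusted p = 0.0201). Hist1h2bj and Hist1h2bh were lower, at -1.26 ± 0.36 and -1.13 ± 0.32 (adjusted p = 0.0353 and 0.0354). Hist1h2bl, Hist1h2bj and Hist1h2bh share 62.1%, 40.1% and 8.2% of their stretches with other genes. The calls of Hist1h2bl, Hist1h2bj and Hist1h2bh were each lost in 4 of the 6 fits with a culture left out, those without wild-type culture 2 or any one c-kitCre culture, with an adjusted p of up to 0.131. The most abundant uncalled genes, Hist1h2bg and Hist1h2bb, overlapped between genotypes: Hist1h2bg had 3734, 4641 and 2297 in c-kitCre cultures and 9720, 4704 and 3820 in wild-type cultures. Hist1h2bb had 3818, 5397 and 2728 in c-kitCre cultures and 6903, 3812 and 3227 in wild-type cultures, a difference of -0.20 ± 0.36. The pseudogene Hist3h2bb-ps was the only H2B copy called higher, at 63.7, 125 and 59.0 in c-kitCre cultures and 14.1, 15.2 and 6.13 in wild-type cultures (2.70 ± 0.44, adjusted p = 0.00498).

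Head-to-head H2A and H2B genes share the short stretch between their starts. By strand and distance alone, 14 such pairs were found, with 172 to 305 bases between the models. The H2A gene had the lower log2 difference in 10 of 14 pairs, with medians of -1.07 for the H2A and -0.73 for the H2B genes. The pairs include the pseudogenes Hist3h2bb-ps, whose pair has the widest gap (-2.31), and Hist1h2aj, at a mean of 14.1 scaled reads. They also include Hist1h2aa, at a mean of 2.71 scaled reads. Most of the H2A genes belong to the joined set of chromosome 13 given above. Hist1h2ah was at -1.97 and its partner Hist1h2bk at -0.80. Hist1h2ao was at -1.44 and Hist1h2bq at -0.48, and Hist2h2ac at -1.89 and Hist2h2be at -1.12. The reverse order was seen for Hist1h2ai at -0.43 and Hist1h2bl at -1.25. In 1 pair both genes were called, Hist1h2ag at -2.16 and Hist1h2bj at -1.26. The difference within pairs was not tested. The partners, Hist1h2aj and Hist1h2aa were named after their values were seen.

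**Figure D4:**
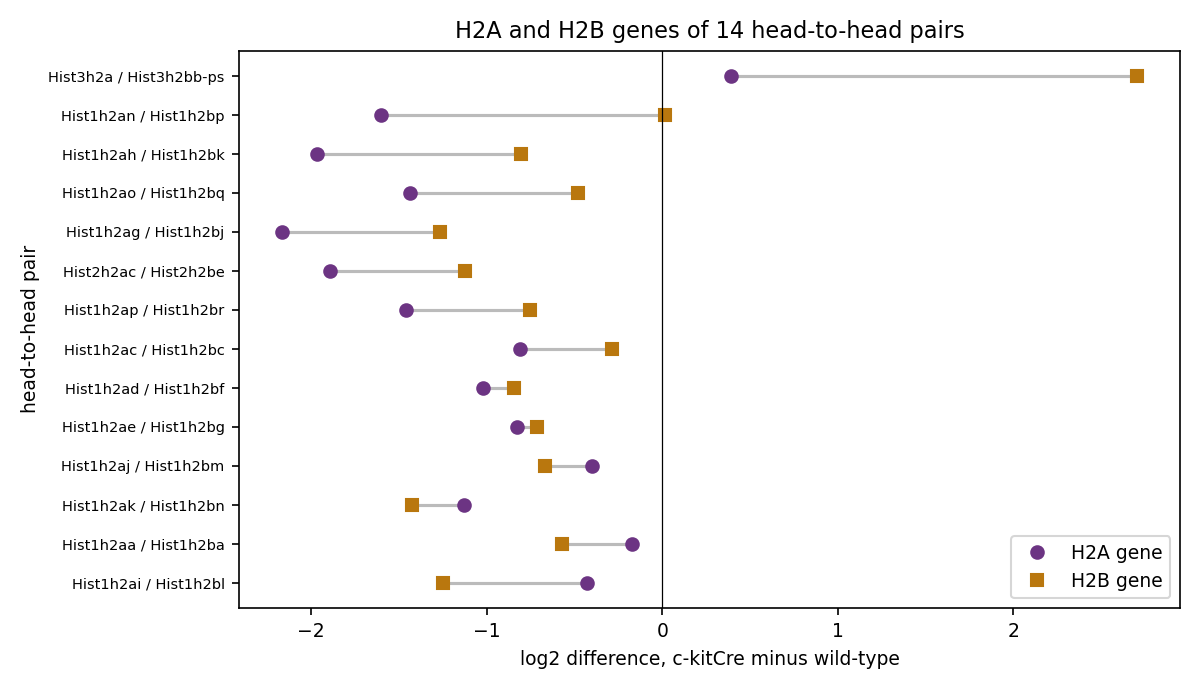
Log2 difference, c-kitCre minus wild-type, of the H2A gene (circle) and the H2B gene (square) of 14 head-to-head pairs, sorted by the difference between the genes of a pair. The circle is left of the square in the upper 10 pairs, and the Hist3h2a pair alone has both symbols right of 0. The square of that pair is the pseudogene Hist3h2bb-ps.

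H3 genes followed the same direction with few calls: 2 of 11 tested were lower, 10 of 11 had a difference below 0, and the median was -0.91. Hist1h3g, whose stem-loop differs from those of the other H3 genes, had 591, 540 and 325 scaled reads in c-kitCre cultures, against 3287, 1294 and 929 in wild-type cultures (-1.75 ± 0.50, adjusted p = 0.0369). Hist1h3b had 1456, 1468 and 1098 in c-kitCre cultures and 4155, 2503 and 2111 in wild-type cultures (-1.08 ± 0.28, adjusted p = 0.0257). Groups did not overlap in either gene, and both calls were lost without wild-type culture 2 or any one c-kitCre culture (adjusted p up to 0.138). The sum of Hist1h3b with the 3 genes joined to it was at -1.01 ± 0.36 (adjusted p = 0.0728). The abundant Hist1h3f and Hist1h3e were not called: Hist1h3f had 3524, 4304 and 2191 in c-kitCre cultures and 9466, 5376 and 4195 in wild-type cultures. Hist1h3e had 2943, 4134 and 1920 in c-kitCre cultures and 8557, 4273 and 3151 in wild-type cultures. In each, 1 c-kitCre culture reached into the wild-type range.

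H4 had the steadiest single gene. Of 13 genes 6 were lower, 1 was higher and 11 were below 0, with a median of -0.88. Hist2h4 (chr3:96261682-96263311) shares no stretch of 100 bases with another gene. It had 1385, 1351 and 1051 scaled reads in c-kitCre cultures, against 6370, 4959 and 4626 in wild-type cultures. Both groups were tight and far apart, with a log2 difference of -2.07 ± 0.18 (adjusted p = 0.000467) and between -2.165 and -1.935 in the alternative fits. Hist1h4c had 3462, 3640 and 2657 in c-kitCre cultures and 7551, 5691 and 4968 in wild-type cultures (-0.89 ± 0.21, adjusted p = 0.0177; 0.0519 or 0.0640 with c-kitCre culture 1 or 3 left out, and 0.0620 with wild-type culture 2 left out). Hist4h4, the member on chromosome 6, had 1243, 1332 and 923 in c-kitCre cultures and 4256, 2341 and 1789 in wild-type cultures (-1.18 ± 0.34, adjusted p = 0.0372). Hist1h4f, Hist1h4j and Hist1h4b were lower, at -0.97 ± 0.28, -1.17 ± 0.34 and -0.88 ± 0.27 (adjusted p = 0.0386, 0.0405 and 0.0480). The sum of Hist1h4j and Hist1h4b with the 3 genes joined to them was not called (-0.82 ± 0.31, adjusted p = 0.0907). Hist1h4j shares 18.96% and Hist1h4b 71.81% of its stretches with other genes, so this sum does not pool identical copies alone. The calls of Hist4h4, Hist1h4f, Hist1h4j and Hist1h4b were each lost in 4 to 6 of the 6 fits with a culture left out.

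The H4 gene with the highest level per kilobase of coding sequence of all members, Hist1h4d, was not called. It had 10595, 12652 and 8071 scaled reads in c-kitCre cultures and 17668, 12151 and 10395 in wild-type cultures (-0.35 ± 0.26, adjusted p = 0.354). Hist1h4h had 3767, 4032 and 2564 in c-kitCre cultures and 9868, 5650 and 4394 in wild-type cultures, without overlap (-0.88 ± 0.34, adjusted p = 0.0893). Hist1h4m was the one H4 gene called higher, at 396, 521 and 209 scaled reads in c-kitCre cultures and 162, 110 and 68.6 in wild-type cultures (1.71 ± 0.46, adjusted p = 0.0295). It shares 88.1% of its stretches with Hist1h4n, which moved the other way at 1753, 3061 and 1115 in c-kitCre cultures and 6994, 3659 and 2826 in wild-type cultures (-1.20 ± 0.47, adjusted p = 0.0974). Their sum was at -0.98 ± 0.47 (adjusted p = 0.155), so that summing the copies turned the direction, and how reads were split between them is not known. The call of Hist1h4m was also lost without wild-type culture 2 or 3 or c-kitCre culture 1 or 2 (adjusted p up to 0.107).

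By position, the first block of chromosome 13 (24 genes between 21715763 and 22043676) had 8 lower (33.3%) and 1 higher gene and a median of -1.15. The second block (31 genes between 23531050 and 23934851) had 6 lower (19.35%) and 1 higher gene and a median of -0.81. Of all genes tested 19.3% were called lower, and of those that average 100 scaled reads or more 31.25%. Differences between positions were not tested. Hist1h1a stands in the second block next to Hist1h3a and Hist1h4a, which were at 0.10 ± 0.38 and -0.19 ± 0.24 and not called (adjusted p = 0.856 and 0.553). On chromosome 3, 4 of 9 tested genes were lower (44.4%), with a median of -1.28. On chromosome 11 all 3 members had a difference above 0: Hist3h2bb-ps was called, and Hist3h2a (0.39 ± 0.36) and Hist3h2ba (0.83 ± 0.57) were not. Hist3h2a had 948, 1619 and 675 scaled reads in c-kitCre cultures and 1063, 689 and 627 in wild-type cultures. These neighbours were named after their values were seen.

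The members moved together from culture to culture within each genotype. Wild-type culture 1 was the highest of all 6 in 55 of 69 members, against 24.4% of all genes. At 100 scaled reads or more it was the highest in 50 of 58 members (86.2%), against 36.1% of all genes at that level. Among the c-kitCre cultures, culture 2 was the highest in 55 of 69 members, against 43.0% of all genes, and the lowest in 1, against 39.8% of all genes. In the list of S phase entry and DNA replication, wild-type culture 1 was likewise the highest of all 6 in 16 of 24 genes. The c-kitCre cultures were ordered otherwise there, with culture 2 the lowest of them in 20 of 24 and the highest in 1. Culture 2 had the smallest summed raw value of all 6 cultures, and the part of depth was not tested.

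**Figure D5:**
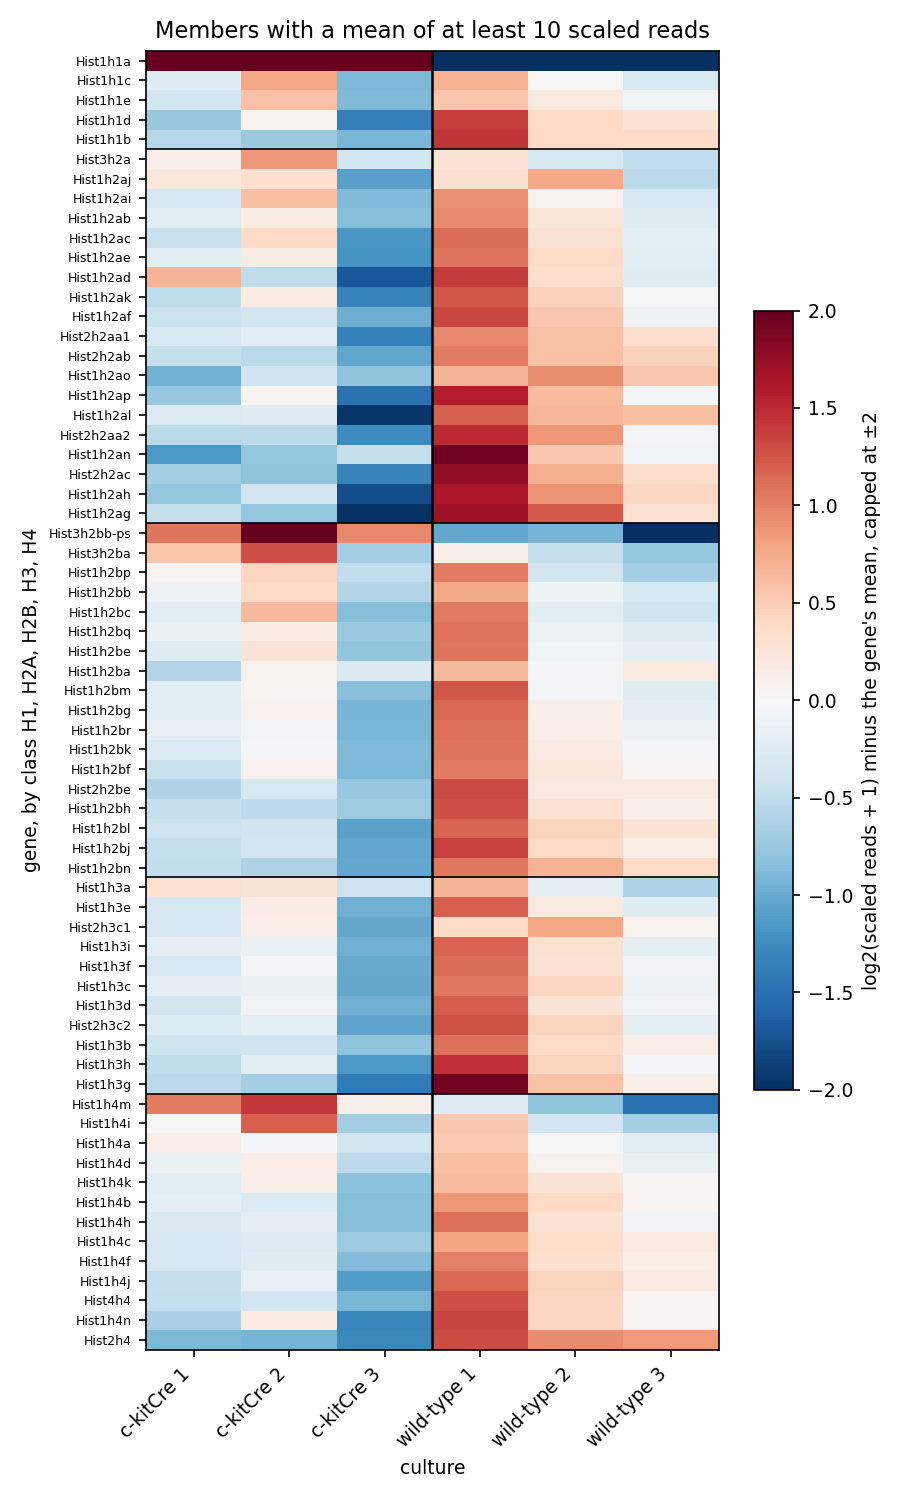
Log2(scaled reads + 1) minus the gene's mean for members that average 10 scaled reads or more, in the 6 cultures, c-kitCre left of the line and wild-type right; the scale is capped at 2 in either direction. The column of wild-type culture 1 is red for most genes and that of c-kitCre culture 3 blue, while Hist1h1a, Hist3h2bb-ps and Hist1h4m run the other way.

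Genes that act with the replication-dependent histones were examined as 4 lists. Beside the counts of each list, 19.3% of all genes tested were called lower and 16.2% higher. Among genes that average 100 scaled reads or more, these shares were 31.25% and 19.0%, with a median of -0.19. Whether a list differs from these shares was not tested. In the list of S phase entry and DNA replication, 13 of 24 genes were lower and 2 higher, with a median of -0.73. The replication clamp Pcna had 4659, 3527 and 4247 scaled reads in c-kitCre cultures, against 14786, 11519 and 10815 in wild-type cultures (-1.57 ± 0.18, adjusted p = 0.00129). E2f2, a transcription factor of S phase entry, was lower, at -2.94 ± 0.21, and the helicase subunit Mcm6 at -1.14 ± 0.17, while the replication factor Gins2 was higher, at 1.56 ± 0.17 (adjusted p = 0.000248, 0.00355 and 0.00103). Mki67, named after its value was seen, was the other gene called higher, at 0.83 ± 0.21 (adjusted p = 0.0256). Its means were 41957 scaled reads in c-kitCre and 23791 in wild-type cultures, without overlap. The mean difference of the list was -0.58, and 47 of 69 members lay below it and 22 above.

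In the list of histone RNA transcription and 3′ end processing, 7 of 13 tested genes were lower and 1 higher, with a median of -0.68. The smallest p-values were those of the cap-binding subunit Ncbp1 (-1.71 ± 0.14, adjusted p = 0.000421), its partner Srrt (-1.13 ± 0.10, 0.000561), the cleavage factor subunit Cpsf2 (-0.95 ± 0.16, 0.00528) and Pou2f1, the factor that binds the octamer (-0.68 ± 0.12, 0.00636). Slbp itself, named after its value was seen, had 2917, 2575 and 2458 scaled reads in c-kitCre cultures and 3012, 2284 and 2230 in wild-type cultures (0.09 ± 0.16, adjusted p = 0.683). Of the histone chaperones and importers, 9 of 20 tested were lower and 1 higher, with a median of -0.44. Mcm2, a helicase subunit that also carries histones, was at -1.75 ± 0.18, Nasp, a carrier of H3 and H4, at -1.10 ± 0.16, Hira, which deposits a replication-independent H3, at -1.53 ± 0.28, and Chaf1b, of the replication-coupled assembly factor, at -0.78 ± 0.14 (adjusted p = 0.000998, 0.00308, 0.00741 and 0.00756).

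The genes listed as replication-independent histones, whose RNAs in most cases carry a poly(A) tail, were divided. Of 11 tested 3 were lower and 2 higher, with a median of -0.26. H2afz, an H2A variant, had 4720, 3266 and 4513 scaled reads in c-kitCre cultures and 10459, 8090 and 8193 in wild-type cultures (-1.11 ± 0.19, adjusted p = 0.00639). Its close relative H2afv had 1625, 1712 and 1622 in c-kitCre cultures and 1059, 595 and 571 in wild-type cultures (1.22 ± 0.25, adjusted p = 0.0117). H2afj was lower, at -1.40 ± 0.30 and Cenpa, the H3 variant of centromeres, higher, at 0.95 ± 0.22 (adjusted p = 0.0126 and 0.0190).

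The authors' deposited table of changed genes lists 4528 genes, 13.2% of the full table, and 16 of the 70 members (22.9%). These 2 shares are not matched for level, since 10023 genes of the full table were not tested here, against 1 member. It gives 3 of them as higher in c-kitCre, Hist1h1a at 84.0-fold, Hist3h2bb-ps at 6.52-fold and Hist1h4m at 3.27-fold, and 13 as lower, led by Hist1h2ag at 4.48-fold and Hist2h4 at 4.20-fold. Of these 16, 13 were also called here. The others were Hist1h1d, Hist1h2an and Hist1h2ap, all with a difference below 0 and an adjusted p between 0.0573 and 0.0768. Another 10 members called here are not listed there. The smallest fold in the authors' deposited table is 2.50, and 9 of these 10 had a smaller one here; the other was Hist1h2al.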

How the data were processed

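RNA of 6 cultures was measured, 3 c-kitCre and 3 wild-type, with 2 libraries each. Per the labels' protocols, ribosomal RNA was depleted and paired reads of 100 bp were taken. The build mm10 and, without a version, the tool DESeq stand in the submitters' processing notes. The aligner, and whether strand was used, is not given in the sources used here. The raw values deposited by the authors are a signal that is not whole-numbered, merged from the 2 libraries in a way that is not known, so they were not tested as counts. The authors' normalized values are on a log2 scale: each is log2 of the scaled raw value, never below a floor of 4.41 scaled reads, shifted by a gene-wise constant. Values of 8848 genes over 200 scaled reads in every culture met this form to within 2.04e-06. The authors' second table gives a ratio, their signed fold. Fold changes on the floored scale understate the change of genes near the floor.

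The test was a two-sided moderated linear model with a mean-variance trend (limma 3.58.1 in R 4.3.3) on the deposited log2 values with the constant added back, c-kitCre minus wild-type, without covariates. Of 34174 genes, 10023 averaged below 1 scaled read or never left the floor and were not tested, and p-values were adjusted by Benjamini-Hochberg over 24151 genes. No interval is given for single values, since counts are not known. Coordinates, transcripts and lengths came from GENCODE M21, with 60 members matched by ID and 10 by symbol, and promoters from RefSeq GRCm38.p6. In the context lists, 1 symbol each of the processing and chaperone lists was not matched. Members joined by shared stretches of 100 bases, by the rule given above, were also summed before the fit. Alternatives were other filters and pseudocounts, other scalings, the culture number as a block, no trend, and leaving out each culture; the coding-length scale and the comparison with the mean of the S phase list were added after seeing the data. Members and lists were chosen with earlier results of these data known.

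Named are Kit, each called member, the 10 most abundant others, the H1 genes, and up to 4 genes per list with the smallest p. Python 3.11.15, pandas 2.3.3, numpy 2.4.6 and matplotlib 3.10.9 were used.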

Additional observations from a re-analysis of the deposited data

How the results depend on the processing

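Of 611 comparisons between the values of 34 named members and their alternatives, 486 kept direction and side of the threshold, 98 no longer passed, 20 newly passed and 7 turned direction. Of the 23 called members, 4 kept their call in every alternative (Hist1h1a, Hist3h2bb-ps, Hist2h4 and Hist1h2bn). These were joined to no other member, so summing joined members did not change their own values. The 7 that turned were Hist1h1c when wild-type culture 1 (0.03) or c-kitCre culture 3 (0.13) was left out (-0.70 to 0.13 over all cultures left out), Hist1h2bb when centred on the better expressed genes (0.0145) and when wild-type culture 1 (0.13) or c-kitCre culture 3 (0.05) was left out (-0.45 to 0.13), Hist1h1t when centred on all genes (-0.14), and Hist1h4m when near-identical copies were summed (-0.98). Lower members, 20 as reported, numbered 7 with no filter (34174 genes tested), 40 with centring on all genes, and 5 to 19 with a culture left out. Higher members, 3 as reported, stayed at 2 or 3 in the alternatives run. Over all genes, 8584 calls became 5691 to 9060 with a culture left out, the lowest without wild-type culture 2. The split was 2817 higher and 8591 lower after centring on all genes, and 5470 and 3795 after centring on those that average 50 scaled reads or more, against 3915 and 4669 as reported. With the culture number as a replicate block, 31 members were lower and 3 higher, and 8108 genes were called in all. Over all genes tested, same-numbered cultures had correlations of 0.07, -0.02 and 0.16 between their deviations. These correlations were not taken over the members alone, so whether the numbers pair the cultures in the members was not tested. The H1 shares changed with the length used: Hist1h1a held 7.36% of scaled reads and 7.50% per coding length in c-kitCre cultures (0.0621% and 0.0636% in wild-type), Hist1h1e 42.6% and 42.2% in c-kitCre cultures, and Hist1h1d 13.5% and 13.3% in c-kitCre cultures (23.9% and 23.6% in wild-type). Except for these shares, where the lengths differ by construction, the cause was not tested. The precision for single genes is limited by 3 cultures per genotype and by sequence shared between copies.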
